A study of Mus musculus with 12 samples.

Results

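The comparison described here sets Fes-/- macrophages against wild-type (Fes+/+) macrophages after both had met lipopolysaccharide (LPS). It rests on 6 of the 12 libraries of the study, 3 per genotype, which were taken by their genotype and treatment labels and by the matching column names. The cells were primary bone-marrow-derived macrophages, grown from mouse marrow in macrophage colony-stimulating factor, with 3 mice per genotype. All 6 cultures received 1 µg/mL LPS for 4 hours, and polyadenylated RNA was sequenced. The other 6 libraries are the same genotypes under PBS, labelled with the same time, and enter the same model, so they share in the estimate of the spread behind each LPS call. With the 6 LPS libraries alone, 14 genes were called, 13 of them among those called with all 12. Strain, age, sex and the design of the Fes allele are not given in the sources used here, so it is not known which part of the gene the allele changes. One batch date covers all libraries.

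FES is a cytoplasmic tyrosine kinase of myeloid cells that binds membranes and phosphorylates proteins near activated receptors. LPS is sensed on macrophages by CD14, MD-2 and TLR4, whose adaptors MyD88 and TRIF switch on NF-kB and interferon regulatory factors. Within hours the cell makes cytokines, chemokines and interferon-stimulated genes and displays more co-stimulatory ligands for T cells. Since the series title names CD8+ T cell priming and tumour immunity, the cytokines, the MHC molecules and the co-stimulatory ligands were read library by library.

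The 6 libraries held 61016254 to 101027166 counts, and mitochondrial genes took 1.16% to 1.43% of them. Levels are given as CPM, a gene's counts relative to its library's total after TMM scaling, in the order of replicates 1, 2 and 3. Differences are log2(Fes-/- over wild type) with their standard error (SE), and a gene is called where the Benjamini-Hochberg adjusted p of edgeR's quasi-likelihood test is under 0.05. Defining macrophage genes were abundant in both genotypes. The surface receptor gene Adgre1 (F4/80) averaged 1640 ± 96.1 and 1580 ± 30.9 CPM (SD, n = 3 each), and Csf1r, the receptor for the growth factor in the medium, 1760 ± 106 and 1680 ± 89.5 CPM. Libraries of 1 genotype were hardly more alike than libraries of both. Pairwise correlations across genes of log2 CPM were 0.9894 to 0.9910 within wild type, 0.9898 to 0.9931 within Fes-/- and 0.9860 to 0.9925 between genotypes. On the first principal component of the 6 libraries, which held 30.4% of the variance, wild-type LPS 2 lay at -41.72 and Fes-/- LPS 2 at 36.16, and the other 4 lay between -9.91 and 16.36. Differences without these outer libraries, which were picked from the same data, are given below for several genes and lists.

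Of 15801 tested genes, 17 passed (0.108%). In Fes-/- macrophages 11 of them (0.0696%) were higher and 6 (0.038%) lower. At an unadjusted p under 0.05 there were 1030 genes (6.52%). In 1804 genes (11.4%) the 3 libraries of 1 genotype did not overlap those of the other, 914 of them higher (5.78%) and 890 lower (5.63%) in Fes-/-. The 95% interval lay within 2-fold in either direction for 11694 genes (74%). Without wild-type LPS 2 and Fes-/- LPS 2, a setting chosen after the data were seen, 6 higher and 6 lower genes were called, and all 12 were among the 17.

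**Figure D1:**
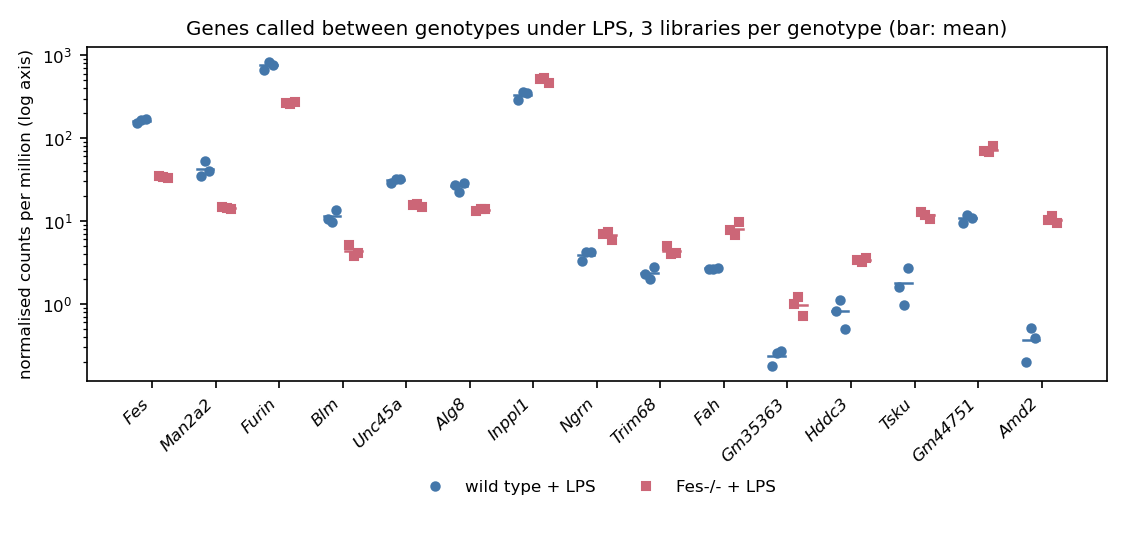
Level of the called genes that have counts in wild type, in the 6 LPS libraries, in CPM after TMM scaling on a log axis, with circles for wild type and squares for Fes-/-. Gm44075 and Gm26862, without a count in wild-type LPS libraries, are not drawn. Fes has 152 to 171 CPM in wild type against 32.9 to 35.1 CPM in Fes-/- libraries, and in each of the 17 called genes the genotypes do not overlap.

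Fes itself was measured first, as the check on the labels. It had 152, 163 and 171 CPM in wild-type and 35.1, 33.5 and 32.9 CPM in Fes-/- libraries. The Fes-/- libraries lay far below all wild-type libraries and close to each other, so every library matched its label. Fes fell from 162 ± 9.77 to 33.8 ± 1.16 CPM, to 20.9% of the wild-type level (-2.26 ± 0.07, interval -2.42 to -2.10, adjusted p = 3.23e-10). The gene lies on the minus strand at chr7:80377756-80387946 of GRCm38. Counts that remain in Fes-/- cells are summed over the gene, and exons were not analysed here. In bulk RNA such as this, fewer cells with a transcript and less transcript per cell cannot be told apart.

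The start of Fes and those of the neighbour Furin and of Tsku, the largest rise of a protein-coding gene on chromosome 7, are shown because the next results turn on these genes. Each line runs 5′ to 3′ along the gene's own strand, with 250 bases before the annotated start in lower case and the first 50 bases from the start in capitals, from RefSeq on GRCm38.p6. The windows are chr7:80387897-80388196, chr7:80405387-80405686 and chr7:98361279-98361578, all on the minus strand.
Fes: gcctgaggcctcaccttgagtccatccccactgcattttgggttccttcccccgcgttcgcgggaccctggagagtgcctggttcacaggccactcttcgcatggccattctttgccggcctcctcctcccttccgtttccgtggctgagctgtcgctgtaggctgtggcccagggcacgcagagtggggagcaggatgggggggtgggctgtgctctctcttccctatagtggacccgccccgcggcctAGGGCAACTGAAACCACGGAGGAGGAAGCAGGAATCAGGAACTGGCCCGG
Furin: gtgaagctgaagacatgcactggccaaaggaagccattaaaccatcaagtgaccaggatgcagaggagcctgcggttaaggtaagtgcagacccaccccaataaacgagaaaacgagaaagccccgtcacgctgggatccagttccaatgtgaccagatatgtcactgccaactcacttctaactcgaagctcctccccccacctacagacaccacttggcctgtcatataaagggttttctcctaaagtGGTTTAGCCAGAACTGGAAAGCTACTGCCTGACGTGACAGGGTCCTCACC
Tsku: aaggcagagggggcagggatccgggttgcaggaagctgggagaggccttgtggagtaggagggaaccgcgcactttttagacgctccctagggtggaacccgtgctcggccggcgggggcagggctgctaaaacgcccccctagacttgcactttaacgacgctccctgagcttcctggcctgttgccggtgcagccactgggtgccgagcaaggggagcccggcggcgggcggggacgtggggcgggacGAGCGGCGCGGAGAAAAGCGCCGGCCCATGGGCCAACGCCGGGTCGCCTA
RefSeq promoters were found for 13 of the 17 called genes. They were searched on both strands for GAGGAAGT, a string bound by PU.1, the master regulator of macrophages. None of the 13 windows held these letters, which 1052 of all 32851 promoter windows of the same length (3.20%) did, and nothing further was read from it.

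The genes around Fes on chromosome 7 came next. Of 18 tested genes in a list of its neighbours, Fes included, 2 rose, 5 fell and 11 were not called, with a median of -0.27 against -0.00 over all tested genes. Furin encodes the proprotein convertase that cuts TGF-beta and many receptor precursors, and its start lies 0.0175 Mb from that of Fes. It had 670, 822 and 763 CPM in wild-type and 262, 255 and 269 CPM in Fes-/- libraries. Every Fes-/- library lay far below the lowest wild-type one. Furin fell to 34.8% of wild type (-1.52 ± 0.11, adjusted p = 4.66e-06).

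Man2a2, a Golgi mannosidase gene of N-glycan trimming on the other side of Fes, had 35.3, 53.3 and 39.8 CPM in wild-type and 14.7, 14.5 and 13.8 CPM in Fes-/- libraries. It fell by 1.58 ± 0.17 (adjusted p = 0.000993), with wild type spread more widely than Fes-/-. Unc45a encodes a chaperone that folds myosin heads. Its wild-type libraries held 29.1, 32.5 and 31.8 CPM and its Fes-/- libraries 15.7, 16 and 14.8 CPM. The Fes-/- values were close together and well below wild type, and Unc45a fell by 1.0 ± 0.09 (adjusted p = 4.38e-05). Blm, the gene of the DNA helicase lost in Bloom syndrome, had 10.7, 9.84 and 13.5 CPM against 5.12, 3.78 and 4.12 CPM. The groups did not overlap, and Blm fell by 1.38 ± 0.14 (adjusted p = 0.000126).

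The neighbours that rose were weakly expressed. Hddc3, which encodes a phosphohydrolase of the HD family, had 0.823, 1.13 and 0.497 CPM in wild-type and 3.42, 3.23 and 3.55 CPM in Fes-/- libraries. It rose by 2.06 ± 0.21 (adjusted p = 0.000187), with Fes-/- libraries close together and apart from wild type. Its counts carry a limit, since 1451 bp of Hddc3 overlap Man2a2 on the opposite strand, and whether the counting used strand is not given. A transcript of Hddc3 also matched Ccdc82 at 95.3% over 654 of 885 bp, and Ccdc82 had a difference of 0.04 ± 0.09. Ngrn, a gene of mitochondrial ribosome assembly, had 3.34, 4.19 and 4.21 CPM against 6.89, 7.40 and 5.96 CPM. It rose by 0.79 ± 0.13 (adjusted p = 0.0325), and 10 alternatives ended that call (adjusted p up to 0.402).

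Not every neighbour moved. Iqgap1, a scaffold of the actin cortex 0.438 Mb away, had 2350 ± 133 CPM in wild type against 2590 ± 93.7 CPM in Fes-/- (0.14 ± 0.09, interval -0.05 to 0.33). Vps33b, a vesicle-tethering gene 0.118 Mb from Fes on the other side, had 9.21 ± 0.273 and 9.42 ± 0.612 CPM (0.03 ± 0.09, interval -0.17 to 0.23). Idh2, a mitochondrial dehydrogenase gene, had a difference of -0.05 ± 0.10 (interval -0.26 to 0.17) and the zinc-finger gene Zfp710 one of -0.04 ± 0.08 (interval -0.22 to 0.14). These intervals lay well inside 2-fold, so genes with large differences and genes with little or none both lay in the neighbourhood of Fes.

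Farther up chromosome 7 the called genes continued. Fah, the last enzyme of tyrosine breakdown, had 2.67, 2.67 and 2.72 CPM in wild-type and 7.85, 6.76 and 9.68 CPM in Fes-/- libraries (1.59 ± 0.26, adjusted p = 0.0296). Wild-type libraries were nearly equal and Fes-/- libraries were all higher, but 8 alternatives ended the call (adjusted p from 0.0507 to 0.34). The long noncoding RNA gene Gm44751, 7.92 Mb from Fes, had 9.57, 11.9 and 11.0 CPM against 69.5, 67.6 and 80.3 CPM (2.74 ± 0.11, adjusted p = 4.7e-09). Gm26862, 12.6 Mb away, had no count in any wild-type LPS library and 373 counts in the Fes-/- ones, at least 98.1-fold higher against a floor of 3 counts over the group. Gm26862 overlaps Gm9934 over 28947 bp on the opposite strand and Fam181b over 2003 bp on its own strand, and 237 of its 2191 bp match Prcp at 95.8%, so its counts carry the same limit as those of Hddc3. Alg8, which adds a glucose to the precursor of N-glycans, had 27.1, 22.1 and 29.1 CPM against 13.1, 13.9 and 13.8 CPM. Every Fes-/- library lay below every wild-type one, and Alg8 fell by 0.94 ± 0.11 (adjusted p = 0.000928).

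Tsku encodes a secreted leucine-rich proteoglycan that binds TGF-beta family ligands and lies 18 Mb from Fes. It had 1.62, 0.962 and 2.72 CPM in wild-type and 12.9, 11.7 and 10.6 CPM in Fes-/- libraries. The lowest Fes-/- library stood well above the highest wild-type one, and Tsku rose by 2.73 ± 0.27 (interval 2.16 to 3.30, adjusted p = 0.000158). Inppl1 encodes SHIP2, the phosphatase that removes the 5-phosphate of PIP3. Its values of 286, 358 and 352 CPM in wild-type and 512, 531 and 457 CPM in Fes-/- libraries did not overlap, and it rose by 0.59 ± 0.09 (adjusted p = 0.0172). Trim68, a ubiquitin ligase gene, had 2.31, 2.01 and 2.80 CPM against 5.01, 4.04 and 4.16 CPM and rose by 0.89 ± 0.14 (adjusted p = 0.023). The noncoding Gm35363 rose from 0.178 to 0.269 CPM in wild type to 0.719 to 1.2 CPM in Fes-/- (2.04 ± 0.33, adjusted p = 0.023). Between 6 and 8 of the alternatives ended the calls of Inppl1, Trim68 and Gm35363, and the call of each was lost when wild-type LPS 1 or Fes-/- LPS 1 was left out.

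All 15 called genes of chromosome 7 had their starts between -0.127 Mb (Ngrn) and 22.3 Mb (Trim68) from that of Fes, counted along the chromosome. In the stretch from 5 Mb below to 25 Mb above, whose bounds were set after the values were seen, 15 of 224 tested genes were called. Of those 224 genes, 69 (30.8%) had an unadjusted p under 0.05 and 80 (35.7%) had genotypes that did not overlap. On the rest of chromosome 7, 0 of 998 genes were called by edgeR or DESeq2, 56 (5.61%) had p under 0.05 and 107 (10.7%) did not overlap. On the other chromosomes 2 of 14579 genes were called, with 905 (6.21%) and 1617 (11.1%) in the same order. The median size of the log2 difference, without its sign, was 0.23 in the stretch, 0.11 on the rest of the chromosome and 0.12 elsewhere.

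Along the chromosome the share with p under 0.05 was 42.2% of 45 genes in the first 5 Mb above Fes, 38.9% of 18 genes at 5 to 10 Mb and 31.9% of 47 genes at 15 to 20 Mb. It was 20.3% of 59 genes at 20 to 25 Mb, 8.51% of 47 genes at 25 to 30 Mb and 3.7% of 54 genes at 30 to 40 Mb. Below Fes it was 28.2% of 39 genes within 5 Mb and 0 of 28 genes at 10 to 20 Mb, with only 5 genes between. Differences in both directions were thus dense near Fes and, past 25 Mb, close to the share on other chromosomes. What these genes share beyond position was not tested, and the genomes of the mice are not described in the sources used here.

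**Figure D2:**
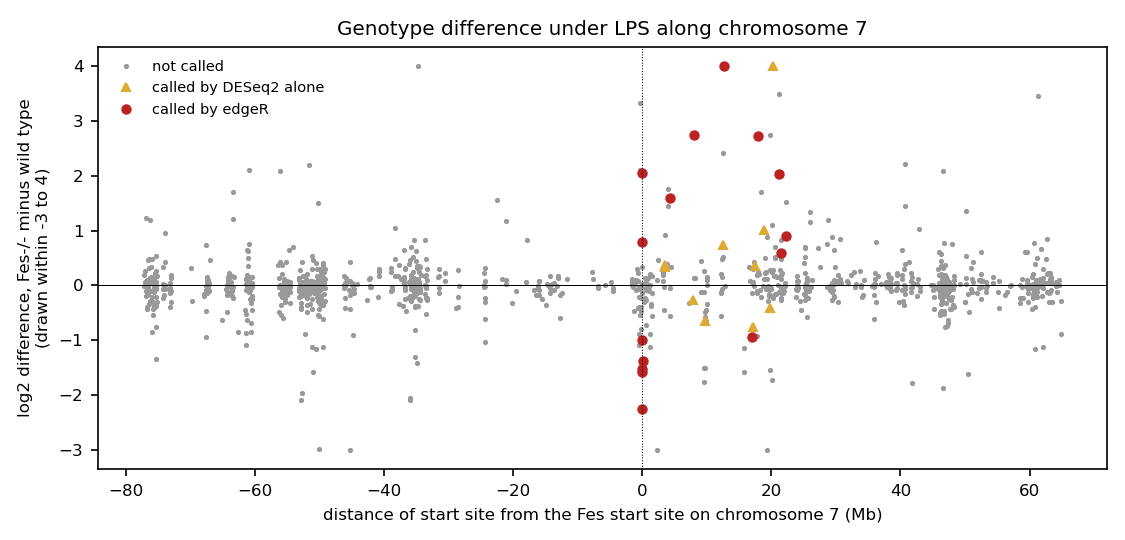
Log2 difference (Fes-/- minus wild type, under LPS) of each tested gene of chromosome 7 against the distance of its start from that of Fes in Mb, with called genes marked. All 15 called genes lie from -0.127 to 22.3 Mb, 9 higher and 6 lower in Fes-/- macrophages.

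Off chromosome 7 the 2 called genes were Amd2 and Gm44075, and both are near-copies of expressed genes. Amd2 (chr10:35708675-35711892, minus strand) had 0.2, 0.513 and 0.394 CPM in wild-type and 10.2, 11.6 and 9.41 CPM in Fes-/- libraries. It rose by 4.80 ± 0.27 (adjusted p = 1.3e-07) on these counts. Its parent Amd1 encodes S-adenosylmethionine decarboxylase, which supplies the aminopropyl groups of spermidine and spermine. Amd1 had 25.9, 16 and 25.4 CPM in wild-type and 17.4, 18.8 and 14.5 CPM in Fes-/- libraries, which overlap (-0.41 ± 0.21, interval -0.87 to 0.05, adjusted p = 0.791). The transcripts match at 99.6% over 3202 of the 3218 bp of Amd2, so how reads were split between them decides these counts, and the Amd2 value is uncertain. Their annotated coding sequences, from GENCODE M21, align over 1002 positions and differ at 1, G796C from Amd1 to Amd2, counted from the A of the start codon. The stretch from position 736 to 855 is shown with that base in capitals.
Amd1: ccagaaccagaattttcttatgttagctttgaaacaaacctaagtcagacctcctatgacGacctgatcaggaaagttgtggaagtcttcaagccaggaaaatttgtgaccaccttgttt
Amd2: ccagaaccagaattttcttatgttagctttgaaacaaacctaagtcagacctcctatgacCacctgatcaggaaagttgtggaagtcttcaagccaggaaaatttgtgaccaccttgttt
Gm44075 is a processed pseudogene (chr6:63783852-63784067, minus strand). It had no count in the wild-type LPS libraries and 29.1, 27.7 and 24.0 CPM in Fes-/- ones, 4842 counts against 0 and at least 1270-fold higher against a floor of 3 counts over the group. Its transcript matches Trim21, an antibody receptor and ubiquitin ligase gene, at 97.7% over 215 of 216 bp. How reads were split between them decides the Gm44075 counts as well. Its value is thus uncertain too, and the fold bound covers counting error only. Trim21 lies in the same stretch of chromosome 7 as the genes above and had 583, 582 and 641 CPM against 657, 658 and 542 CPM, which overlap (0.04 ± 0.11). Of the 17 called genes 8 had a match of at least 90% identity elsewhere in the transcriptome, but only Amd2 and Gm44075 matched over nearly the whole transcript.

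The PBS libraries show which of these differences also stood without LPS. Under PBS edgeR called 13 genes between genotypes (0.0823%). The LPS and PBS comparisons share no library, but their cultures may come from the same mice, so the PBS values are not independent support. Amd2 had differences of 4.80 under LPS and 5.38 under PBS, Gm44751 of 2.74 and 2.62, Alg8 of -0.94 and -1.03, Man2a2 of -1.58 and -1.68 and Fah of 1.59 and 1.52. These 5 genes were thus about as far apart in resting as in stimulated cells. They were picked from the 17 called genes with earlier results known, and do not stand for the rest.

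The difference between the 2 effects was tested as an interaction and was called for 3 genes (0.019%), with 464 (2.94%) at an unadjusted p under 0.05. Fes had 169, 189 and 179 CPM in wild-type and 68.9, 66.4 and 70.5 CPM in Fes-/- libraries under PBS, 38.3% of wild type against 20.9% under LPS. Its log2 difference was larger in size under LPS, with an interaction of -0.87 (adjusted p = 0.00556). Unc45a had 13.8, 14.4 and 15.3 CPM in wild-type and 13.5, 12.3 and 14.9 CPM in Fes-/- libraries under PBS. Those groups overlap, unlike the LPS libraries, and the interaction was -0.91 (adjusted p = 0.0215). Tsku had 2.49, 3.46 and 3.57 CPM in wild-type and 2.47, 2.42 and 2.36 CPM in Fes-/- libraries under PBS. There the Fes-/- libraries were slightly lower, while under LPS they were far higher, and the interaction was 3.12 (adjusted p = 0.00556). Without wild-type LPS 2 and Fes-/- LPS 2 only the interaction of Tsku was called, and leaving out 1 library ended the call of Unc45a in 8 of 12 cases.

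**Figure D3:**
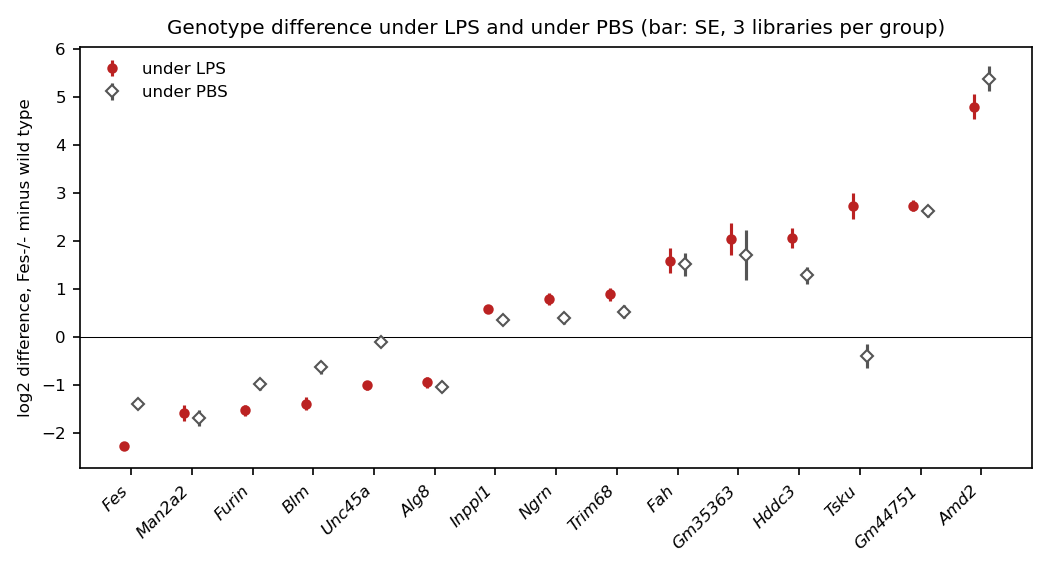
Log2 difference between genotypes (Fes-/- minus wild type) of 15 called genes under LPS, as filled circles, and under PBS, as open diamonds, with bars for 1 SE from 3 libraries per group. Tsku lies at 2.73 under LPS and -0.39 under PBS, Unc45a at -1.0 and -0.09.

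A test with DESeq2 called 38 genes (0.206%), the 17 and 21 more, of which 10 lay in the same stretch of chromosome 7. These 21 were not called by edgeR, so their values are given as levels. Prcp, a lysosomal carboxypeptidase gene of that stretch, had 71, 87.5 and 76.2 CPM in wild-type and 134, 128 and 130 CPM in Fes-/- libraries (0.74 ± 0.13, edgeR adjusted p = 0.0659, DESeq2 adjusted p = 0.000465). Its groups are well apart, and under PBS its difference was -0.14. Picalm, a clathrin assembly gene also of chromosome 7, had 729, 958 and 717 CPM against 493, 452 and 598 CPM (-0.64 ± 0.15, edgeR adjusted p = 0.352, DESeq2 adjusted p = 0.0274). Wild-type LPS 2 was its highest library and Fes-/- LPS 2 its lowest, and without both the difference was -0.40. Pak1, a kinase of the actin cytoskeleton, had 44.2 ± 4.1 and 56.2 ± 1.04 CPM (0.35 ± 0.08, edgeR adjusted p = 0.226, DESeq2 adjusted p = 0.0106).

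Off chromosome 7, DESeq2 called Cd5l, which encodes a scavenger protein that macrophages secrete. Cd5l had 55.8, 58.3 and 40.3 CPM in wild-type and 23.5, 18.6 and 28.7 CPM in Fes-/- libraries (-1.13 ± 0.25, edgeR adjusted p = 0.375, DESeq2 adjusted p = 0.000542). The groups did not overlap, and without both outer libraries the difference was -0.88. The imprinted zinc-finger gene Plagl1 had 8.65, 6.31 and 9.27 CPM against 14.9, 20.8 and 11.6 CPM (0.97 ± 0.20, edgeR adjusted p = 0.165, DESeq2 adjusted p = 0.00623). Its highest value is that of Fes-/- LPS 2, and without both outer libraries the difference was 0.57. Thbd, the thrombin receptor thrombomodulin, had 1.51, 0.706 and 1.31 CPM against 2.42, 2.00 and 1.88 CPM (0.85 ± 0.20, edgeR adjusted p = 0.352, DESeq2 adjusted p = 0.00549).

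No gene of the LPS response named below was called by edgeR, apart from Amd2 in the polyamine list. DESeq2 called no member of the lists below beyond Ctsc, Cd5l and Amd2. Transcripts of sensing and early signalling genes stood at nearly equal levels, while signalling itself is not measured by these RNA data. All 20 TLR4 pathway genes had an interval within 2-fold, with 0 called, 0 at an unadjusted p under 0.05 and a median of -0.01. Tlr4 itself had 75.5, 79.2 and 72.7 CPM in wild-type and 76.2, 71 and 79.7 CPM in Fes-/- libraries (-0.00 ± 0.09, interval -0.19 to 0.18). The adaptor gene Myd88 had 570 ± 34.6 and 554 ± 7.13 CPM (-0.04 ± 0.08). Of 24 NF-kB subunits and feedback genes, 0 were called, 2 had p under 0.05 and all 24 had an interval within 2-fold (median -0.00). Among 20 kinases, receptors and substrates linked to FES, 0 were called, 2 had p under 0.05 and 5 had a positive difference (median -0.06). Bcr, a FES substrate, had 2.83, 2.69 and 2.74 CPM against 1.58, 1.82 and 2.05 CPM (-0.61 ± 0.16, adjusted p = 0.488), and its groups did not overlap. Fer, the closest relative of FES, had 18.8 ± 1.7 and 17.8 ± 2.26 CPM (-0.08 ± 0.12).

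Cytokine genes leaned higher in Fes-/- but none of 22 was called, 4 had p under 0.05 and 15 had a positive difference (49.6% of all tested genes did), with a median of 0.17. That median was 0.14 without wild-type LPS 2, 0.06 without Fes-/- LPS 2 and 0.07 without both outer libraries. Il12b encodes p40, the chain that IL-12 shares with IL-23, signals for T helper and CD8+ T cells. It had 673, 145 and 611 CPM in wild-type and 1070, 1820 and 676 CPM in Fes-/- libraries (1.32 ± 0.52, interval 0.15 to 2.49, adjusted p = 0.738). The lowest value is that of wild-type LPS 2 and the highest that of Fes-/- LPS 2, the libraries at the ends of the first component, while the lowest Fes-/- library barely exceeds the highest wild-type one. Without wild-type LPS 2 the difference was 0.89, without Fes-/- LPS 2 it was 0.88, and without both it was 0.44.

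Other inflammatory genes had the same 2 libraries at their ends. Tnf had 2810, 1920 and 2690 CPM in wild-type and 3200, 4770 and 2750 CPM in Fes-/- libraries (0.53 ± 0.40, interval -0.37 to 1.43), and without both outer libraries 0.12. Il6, a fever and acute-phase cytokine, had 1380, 989 and 1380 CPM against 1580, 2050 and 1300 CPM (0.40 ± 0.21, interval -0.05 to 0.84), and without both 0.06. In both genes the groups overlap. The interferon gene Ifnb1 had 11.7, 6.03 and 9.0 CPM against 12.7, 22.1 and 8.41 CPM (0.69 ± 0.34), and without both 0.04. Among chemokines, Cxcl1, which draws neutrophils, had 105, 51.9 and 76 CPM against 116, 224 and 101 CPM (0.92 ± 0.33, adjusted p = 0.719), and without both 0.26. Il10, the inhibitory cytokine, ran the other way across these libraries, with 317, 443 and 306 CPM against 315, 272 and 346 CPM (-0.19 ± 0.14), and without both 0.09. These 2 libraries were picked as the outer ones in the same data and held the end values of their groups in each of these genes. Leaving them out thus had to shrink each difference or turn its sign, whatever its cause. What sets them apart was not tested.

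Of 23 chemokine genes 0 were called, 3 had p under 0.05 and 16 had a positive difference (median 0.07, without both outer libraries 0.04). Ccl6 had lower Fes-/- values, with 146, 142 and 115 CPM against 94, 88.5 and 107 CPM (-0.48 ± 0.14, adjusted p = 0.615). Some highly expressed response genes had nearly the same mean level in both genotypes. Cxcl10, an interferon-induced attractant of T cells, had 12000, 12200 and 12500 CPM against 12900, 12900 and 12200 CPM (0.05 ± 0.39). Nos2, the inducible nitric oxide synthase, had 2330, 3010 and 2550 CPM against 2610, 2530 and 2720 CPM (-0.01 ± 0.22, interval -0.49 to 0.48). Il1b had 5520, 6510 and 6460 CPM against 6820, 7350 and 5880 CPM (0.12 ± 0.37, interval -0.70 to 0.94). The libraries of these 3 genes overlap between genotypes, though their fitted intervals are wide. Of 48 interferon-stimulated genes 0 were called, 0 had p under 0.05, 46 had an interval within 2-fold and 13 had a positive difference (median -0.03). The list summed to 102000 to 108000 CPM in wild type and 99600 to 104000 CPM in Fes-/-. Under PBS it summed to 2700 to 3870 and 2130 to 4180 CPM. Since the PBS libraries share in the fitted spread, the p-values and intervals here do not measure the LPS libraries alone.

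**Figure D4:**
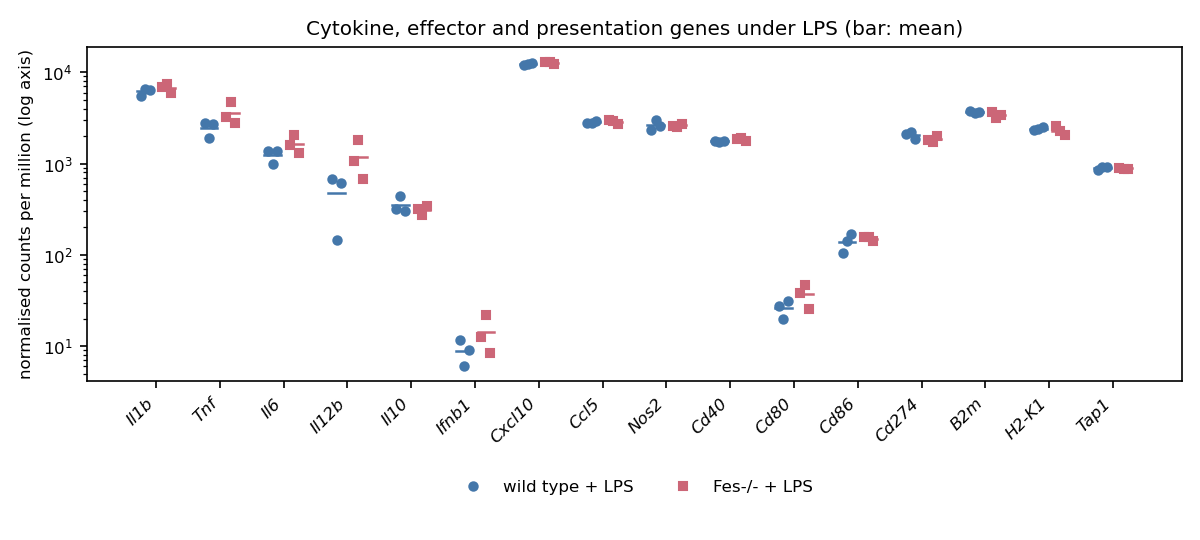
Levels of 16 cytokine, effector and antigen presentation genes in the 6 LPS libraries, in CPM after TMM scaling on a log axis, with bars for group means. Il12b ranges from 145 to 673 CPM in wild type against 676 to 1820 CPM in Fes-/-, while Tap1 lies between 861 and 908 CPM in all 6 libraries.

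Genes that show antigen to T cells were read next. All 23 MHC class I presentation genes had an interval within 2-fold, 0 were called, 0 had p under 0.05 and 4 had a positive difference (median -0.03). B2m, the light chain of class I molecules, had 3790, 3580 and 3710 CPM in wild-type and 3710, 3120 and 3380 CPM in Fes-/- libraries (-0.12 ± 0.09, interval -0.31 to 0.07). The peptide transporter gene Tap1 had 861, 908 and 907 CPM against 901, 881 and 881 CPM, which overlap closely (-0.01 ± 0.14, interval -0.30 to 0.28). Its sign turned under several settings, as did that of Nos2. H2-K1, a classical heavy chain gene, had 2330, 2370 and 2530 CPM against 2550, 2280 and 2040 CPM (-0.07 ± 0.13).

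Of 16 MHC class II genes 0 were called, 1 had p under 0.05 and 4 had a positive difference (median -0.08, without both outer libraries -0.01). Ctss, the cathepsin that trims the invariant chain, had 2840, 2730 and 2500 CPM against 2410, 2160 and 2130 CPM (-0.27 ± 0.10, adjusted p = 0.719). Its groups are apart by less than the range within either, and under PBS its difference was -0.37. Of 21 tested co-stimulatory and checkpoint ligand genes 0 were called, 1 had p under 0.05 and 13 had a positive difference (median 0.03). That gene was the CD28 ligand Cd80, with 27.5, 19.8 and 30.9 CPM against 38.6, 46.4 and 25.8 CPM (0.50 ± 0.20, interval 0.06 to 0.94, adjusted p = 0.731), which overlap. Without both outer libraries its difference was 0.14. Cd86, the other CD28 ligand, had 106, 141 and 170 CPM against 155, 157 and 141 CPM (0.12 ± 0.29), which overlap. Cd40, which receives help from T cells, had 1770, 1740 and 1760 CPM against 1850, 1910 and 1750 CPM (0.06 ± 0.11). The PD-1 ligand gene Cd274 had 2090, 2210 and 1880 CPM against 1800, 1710 and 2010 CPM (-0.16 ± 0.14). In both of these genes the genotypes overlap.

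The remaining lists describe what else the macrophages do. Of 32 cell-cycle genes 31 had a positive difference (median 0.19), 3 had p under 0.05 and 0 were called. Top2a, which untangles replicated DNA, had 388, 402 and 475 CPM against 494, 521 and 472 CPM (0.23 ± 0.09, adjusted p = 0.721). The list's median deviation from the mean of the 6 libraries was -0.21, -0.20 and 0.07 in wild-type and 0.13, 0.18 and -0.03 in Fes-/- libraries. Wild-type LPS 3 thus lay above Fes-/- LPS 3, and the groups overlap. Without both outer libraries the list's median log2 difference was 0.09. Since genes of the cycle move together, 31 of 32 is not 32 independent signs.

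Lysosomal genes leaned the other way, with 7 of 28 positive (median -0.08, without both outer libraries -0.04), 2 at p under 0.05, 0 called by edgeR and 1 by DESeq2. That 1 was Ctsc, a dipeptidyl peptidase that activates serine proteases, with 2880, 3190 and 3030 CPM against 2520, 2590 and 2470 CPM (-0.26 ± 0.08, edgeR adjusted p = 0.615, DESeq2 adjusted p = 0.0431). Ctsl, another cathepsin, had 1320, 1200 and 1120 CPM against 993, 960 and 954 CPM (-0.33 ± 0.10, adjusted p = 0.615). In both genes the Fes-/- libraries were tight and lay under all wild-type ones. Ctsc lies on chromosome 7 inside the stretch described above.

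Among 22 scavenger and uptake receptors 0 were called by edgeR, 1 (Cd5l) by DESeq2, 5 had p under 0.05 and 11 were positive (median -0.00). Marco, a receptor for bacteria and particles, had 8.68, 8.3 and 8.83 CPM in wild-type and 11.6, 19.1 and 31.9 CPM in Fes-/- libraries (1.27 ± 0.50, adjusted p = 0.732). Wild-type libraries were tight, and Fes-/- libraries were higher and widely spread. Olr1, a receptor for oxidised lipoprotein, had 216, 278 and 165 CPM against 109, 102 and 183 CPM (-0.74 ± 0.24, adjusted p = 0.696), which overlap, and without both outer libraries the difference was -0.38.

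Metabolic lists of 13 to 24 tested genes had 0 to 4 members each at p under 0.05, beside 6.52% of all tested genes. Of 22 glycolysis and HIF-1 target genes 0 were called and 4 had p under 0.05, all with lower Fes-/- levels (median 0.00). In 6 of the 22 all Fes-/- libraries lay below wild type and in 1 above, beside 5.63% and 5.78% of all tested genes. Hif1a, the oxygen-regulated transcription factor, had 345, 449 and 385 CPM against 313, 273 and 343 CPM (-0.34 ± 0.12, adjusted p = 0.696), and without both outer libraries -0.15. Vegfa, one of its targets, had 5.7, 10.2 and 5.14 CPM against 3.72, 3.34 and 4.97 CPM (-0.81 ± 0.29, adjusted p = 0.719), with wild-type LPS 2 highest and Fes-/- LPS 2 lowest. Of 16 arginine, itaconate and prostaglandin enzymes 0 were called and 2 had p under 0.05 (median -0.03). Of 21 cholesterol synthesis genes 0 were called and 2 had p under 0.05 (median -0.09, without both outer libraries -0.01), and of 13 LXR targets 0 and 1 (median -0.11, without both -0.02). Of 24 respiratory chain genes 0 were called, 0 had p under 0.05 and all 24 had an interval within 2-fold (median 0.00). Of 14 polyamine genes the uncertain Amd2 was the 1 called, and the median was -0.02.

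**Figure D5:**
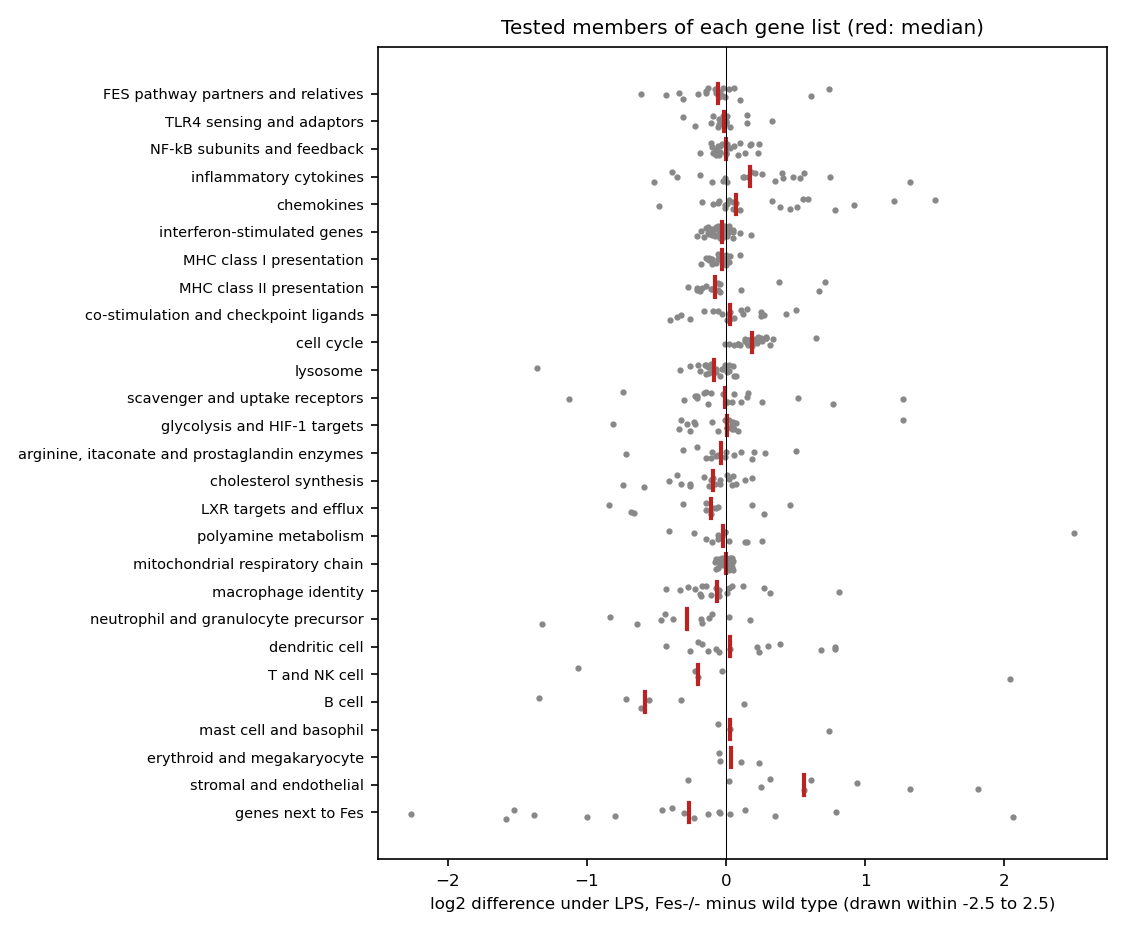
Log2 difference (Fes-/- minus wild type, under LPS) of every tested member of each gene list as points, with the list's median marked. The cytokine median lies at 0.17, the cell-cycle median at 0.19 and the MHC class I median at -0.03, beside -0.00 over all tested genes.

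Some markers that define other lineages were at or near 0, and how many were so differed between lists. Of 20 macrophage identity genes 0 were called, 4 had p under 0.05 and 19 had an interval within 2-fold (median -0.06). Of 16 T and NK cell genes 11 had at most 10 counts in every LPS library, and Cd3d, Cd3g, Ncr1, Gzma, Gzmb and Prf1 were at 0 in all 6. The summed level of the 5 tested members was 47 to 59.9 CPM in wild type against 40.4 to 48.1 CPM in Fes-/-, mostly Il7r. Ly6g and Cxcr2, which define mature neutrophils, were at 0, and the 12 tested neutrophil and precursor genes summed to 287 to 394 CPM in wild type against 199 to 329 CPM in Fes-/- (median -0.28, 0 called, 1 with p under 0.05). Csf3r was the most abundant, with 165, 233 and 164 CPM against 136, 103 and 177 CPM (-0.44 ± 0.24), which overlap, again with wild-type LPS 2 highest and Fes-/- LPS 2 lowest. Without both the median of the neutrophil list was -0.14.

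Tested B-cell genes summed to 7.25 to 13.6 CPM in wild type against 5.72 to 9.41 CPM in Fes-/-. Of 13 listed B-cell genes 6, Cd79a among them, had no more than 10 counts in any LPS library. Mast cell and basophil genes summed to 172 to 191 and 174 to 191 CPM, nearly all Hdc, with Mcpt8, Fcer1a, Ms4a2, Tpsb2, Cma1 and Mcpt4 at 0. Erythroid and megakaryocyte genes summed to 304 to 377 and 293 to 349 CPM, mostly Pf4, with Hba-a2, Hbb-bs, Hbb-bt, Klf1, Alas2 and Gp1bb at 0. Stromal and endothelial genes summed to 56.5 to 72.5 CPM in wild type against 69.4 to 94.2 CPM in Fes-/-, with 8 of 9 positive (median 0.56), 0 called and 1 with p under 0.05. Kdr led them, with 35.2, 26.6 and 43.7 CPM against 56, 62.6 and 37.1 CPM (0.56 ± 0.27), again with wild-type LPS 2 lowest and Fes-/- LPS 2 highest. Of 15 tested dendritic cell genes 0 were called and 8 had a positive difference (median 0.03). In 3 of them p was under 0.05, all with higher Fes-/- levels. Genotypes did not overlap in 4 of the 15, all higher in Fes-/-, beside 5.78% of all tested genes that were so. The 15 genes summed to 636 to 672 CPM in wild type against 624 to 703 CPM in Fes-/-, with Bst2 the most abundant. Of 16 listed dendritic cell genes only Cd209a had at most 10 counts in every LPS library. The same held for 4 of 15 listed stromal and endothelial genes. The part of any of these cells in the differences above was not tested.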

How the data were processed

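The counts are whole numbers per Ensembl gene and library, used as the authors deposited them. The TPM values, scaled by gene length and library, were deposited by the authors beside them. The tools named in the submitters' processing notes are DESeq2 1.34.0, R 4.1.12, Picard 2.9.0 and STAR 2.7.8a, and the notes list the builds GRCm38 and mm9 without roles. The counting program and its strand setting are not given in the sources used here. Counts divided by TPM gave a length within 1% of the summed exons of GENCODE M21 (GRCm38) for 11016 of 11175 genes (98.6%), so positions were taken from that annotation.

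The test was that of edgeR 4.0.16 in R 4.3.3, with filterByExpr over 4 groups (15801 genes kept), TMM factors and 1 mean per group over 12 libraries (8 residual degrees of freedom). The two-sided quasi-likelihood F test had robust dispersion, and the Benjamini-Hochberg adjustment ran over the whole table of tested genes. Intervals cover 95%. Genes at 0 in a group were set against a floor of 3 counts, which covers counting error only. On simulated counts for the genotype comparison under LPS (15580 genes) the test recovered 29 of 50 genes changed 1.41-fold, 47 of 50 changed 2-fold, 49 of 50 changed 4-fold and 50 of 50 changed 8-fold, with 7 false among 182 calls. The changed genes all lay above 1 CPM under LPS, and counts were drawn with the fitted negative binomial spread of each gene only. Since the data gave 17 calls, these shares cannot be read as the recovery in the data.

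The comparison, the 27 gene lists (545 genes, 492 tested) and the genes named were chosen with earlier results of these data known. The rule for named genes took genes called by edgeR or DESeq2, the 20 further genes with the smallest p, at least 5 CPM and no overlap, Fes and its neighbours, the 2 members with the smallest p per list, and 16 key response genes. The text gives values for part of them. Others were chosen after their values were seen. Alternatives were DESeq2 1.42.0, RLE factors, library totals alone, no filter, a filter of 1 CPM in 3 libraries, the 6 LPS libraries alone, limma 3.58.1 on log2(TPM + 1) and log2(TPM + 0.1), the replicate number as a block and each library left out. The quasi-likelihood method of edgeR 4 and leaving out 2 libraries together were added after the data were seen. Transcripts were compared by BLAST 2.17.0. Replicates are labelled as biological, and whether PBS and LPS cultures of 1 number share a mouse is not stated. If they do, the main fit, which has no term for the mouse, counts cultures of 1 mouse as independent. Its interaction test would then leave that pairing unused. Some genes that met the rule are not reported here.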

Additional observations from a re-analysis of the deposited data

Results flagged for a closer look

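In 3 genes the genotype difference under LPS itself differed from that under PBS, by edgeR's interaction term. For Tsku it was higher by 3.12 on the log2 scale (adjusted p = 0.00556), for Fes it was -0.87 (adjusted p = 0.00556) and for Unc45a -0.91 (adjusted p = 0.0215). Each effect is LPS minus PBS of the difference between Fes-/- and wild type. DESeq2 called all 3 and also Fbn1 and P2ry2. With the replicate number as a block the call of Unc45a ended.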

How the results depend on the processing

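Over 23 alternatives 12 of the 17 called genes never lost their call. The calls of Inppl1, Trim68, Gm35363, Fah and Ngrn ended under 6 to 10 of them. DESeq2 called 26 higher and 12 lower genes and 5 interactions. Without a filter on low counts 232 higher and 126 lower genes and 90 interactions were called among 28358 tested, with an infinite prior on the spread (median prior degrees of freedom 6.31 with the filter), and 43 named genes gained a call, Il12b, Tnf, Il6 and Cxcl1 among them. On log2(TPM + 1) 6 interactions and on log2(TPM + 0.1) 5 were called. With the replicate block 6 higher genes were called, and all 12 genes it called were among the 17. The replicate numbers do not pair the genotypes (correlations of deviations -0.0429, -0.129 and -0.151). PBS and LPS libraries of 1 number correlated at 0.137 to 0.166 in wild type and 0.0678 to 0.189 in Fes-/-, each best with its own number, which is a hint from the data only. Without both wild-type LPS 2 and Fes-/- LPS 2 there were 6 higher genes and 1 interaction. Leaving out 1 library gave 6 to 13 higher genes, 6 to 7 lower genes and 2 to 3 interactions. Only 6 were higher without wild-type LPS 1 or Fes-/- LPS 1. The cause of these changes was not tested.

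Signs turned in values near 0. Tap1 was 0.00 and Nos2 0.01 with library totals alone, 0.02 and 0.03 without a filter, and 0.01 and 0.02 on either TPM scale. Without both outer libraries Il10 was 0.09, Tap1 0.01, Ccl5 -0.01 and Nos2 0.13. With 1 library left out the ranges were -0.03 to 0.01 for Tap1, -0.08 to 0.10 for Nos2, -0.01 to 0.06 for Ccl5, -0.16 to 0.01 for H2-K1 and -0.04 to 0.29 for Cd86. They were -0.13 to 0.29 for Itga2b, -0.00 to 0.07 for Hdc, -0.10 to 0.02 for Pf4, -0.13 to 0.03 for Ndufb8 and -1.53 to 0.39 for Ttll13. They were -0.10 to 0.03 for Idh2, -0.07 to 0.02 for Zfp710 and -0.01 to 0.09 for Vps33b. Of 621 list medians recomputed, 561 moved by less than the spread between libraries. With 3 libraries per group, changes under 2-fold can be missed, and so can larger ones where libraries vary. Il12b (1.32, adjusted p = 0.738) and Cd5l (-1.13, adjusted p = 0.375) differed by more than 2-fold and were not called by edgeR.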
